A study of Mus musculus with 6 samples.

Results

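The 10 genes described here encode the mechanical and electrical junctions of the intercalated disc, the structure that joins cardiomyocytes (CMs) end to end. They were chosen by function, as every row whose gene symbol is *Dsp*, *Pkp2*, *Jup*, *Dsg2*, *Dsc2*, *Cdh2*, *Ctnna3*, *Gja1*, *Gja5* or *Gjc1*, and made up 10 of the 20066 genes listed. RNA came from primary CMs of C57BL/6 mice aged P0-1, kept in culture for 96 h with either the solvent dimethylsulfoxide (DMSO) or a cell-permeable form of α-ketoglutarate (αKG), a Krebs cycle intermediate and cosubstrate of histone and DNA demethylases. The labels give 3 libraries per group and 100 µM αKG, whereas the study's methods give another concentration. In its account of neonatal CM experiments, placed with the staining methods, the study says that a sample stands for an isolation from the pooled hearts of newborn mice. Neither this account nor the labels say whether it holds for the libraries, so the p-values measure the spread between these libraries, which may be technical.

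In the intercalated disc, desmosomes tie the intermediate filaments of neighbouring CMs together, and adherens junctions do the same for actin filaments. Desmoglein and desmocollin are the cadherins that reach across the gap between cells in a desmosome, plakoglobin and plakophilin bind their tails, and desmoplakin links these to desmin. N-cadherin is the cadherin of the adherens junction, where its tail binds β-catenin or plakoglobin and, through them, an α-catenin. Gap junctions are channels built from connexins, and the connexin in use differs between working ventricle, atrium and conduction system. In newborn mouse CMs these junctions are still spread along the cell sides, and they gather at the cell ends after birth.

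Depth had to be inferred from which low whole numbers occur in each library, because the deposited values were read counts that had been normalized and rounded to whole numbers. The estimated reads in genes ranged from 4218786 to 4427187 for DMSO and from 3726069 to 4385569 for αKG. All 12 CM markers were listed and above 0 in every library, and markers of endothelial cells, fibroblasts and mural cells were listed as well. Across genes, αKG replicate 3 correlated better with the DMSO libraries (mean Pearson r of 0.979) than with its own group (mean r of 0.962). αKG replicates 1 and 2 correlated at a mean of 0.970 with their own group and at 0.957 and 0.958 with DMSO. Differences are therefore given with all 6 libraries and, for genes whose call changes, also without αKG replicate 3. As this library was singled out for its likeness to DMSO, leaving it out tends to enlarge differences and lower p-values. The p-values without it show how far a result depends on that library and are no independent support. As RNA of whole cultures was sequenced, fewer cells of a type and less RNA per cell cannot be told apart.

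Promoters of genes whose groups did not overlap are shown first, so that the sequence next to the start can be read beside the values. Of the 10 genes, *Jup*, *Gja5*, *Ctnna3*, *Dsp* and *Gja1* had an entry among the 32851 promoters of the RefSeq table (GRCm38.p6), and the 250 bases before the start were searched on both strands for 4 motifs. These were the GC box (GGGCGG), the core of a T-box site (GGTGTG), an NKX2-5 site (AAGTGG) and a GATA site (AGATAA), and no match overlapped another motif. Matches are in capitals, and a match on the strand opposite to the gene appears as its reverse complement. *Jup* and *Gja5* are printed because all αKG libraries lay below all DMSO libraries there, and the first of 3 starts of *Ctnna3* because all αKG libraries lay above. *Jup* lies at chr11:100397791-100398040 on the minus strand, *Gja5* at chr3:97032152-97032401 on the plus strand and *Ctnna3* at chr10:63429848-63430097 on the plus strand. The *Gja5* window lies inside the annotated span of the gene (96904693 to 97077416), so this start is not the first base of that span.
Jup: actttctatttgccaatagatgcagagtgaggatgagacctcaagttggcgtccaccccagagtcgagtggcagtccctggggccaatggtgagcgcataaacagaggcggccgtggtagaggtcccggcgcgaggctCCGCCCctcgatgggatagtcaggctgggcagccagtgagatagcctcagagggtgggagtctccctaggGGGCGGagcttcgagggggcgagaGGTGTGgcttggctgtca
Gja5: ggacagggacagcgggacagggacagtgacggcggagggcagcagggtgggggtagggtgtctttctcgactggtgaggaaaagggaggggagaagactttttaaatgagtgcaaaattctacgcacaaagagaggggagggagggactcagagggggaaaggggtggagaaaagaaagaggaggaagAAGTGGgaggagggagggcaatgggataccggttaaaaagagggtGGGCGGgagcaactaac
Ctnna3: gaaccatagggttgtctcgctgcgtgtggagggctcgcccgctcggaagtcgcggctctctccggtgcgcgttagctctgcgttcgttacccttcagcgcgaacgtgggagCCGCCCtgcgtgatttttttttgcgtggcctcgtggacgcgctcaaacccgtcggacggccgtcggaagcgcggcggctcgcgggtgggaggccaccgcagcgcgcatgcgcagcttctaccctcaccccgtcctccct
The *Jup* promoter held 2 GC boxes, one of them 42 to 37 bases before the start and the other on the opposite strand 112 to 107 bases before it, and a T-box core 18 to 13 bases before the start. That of *Gja5* held a GC box 17 to 12 bases and an NKX2-5 site 62 to 57 bases before the start. *Ctnna3* had a GC box on the opposite strand 139 to 134 bases before this start, in a window with 36 CpG and 67.6% GC. Of the other promoters, *Dsp* held 4 GC boxes and a T-box core, and *Gja1* a GATA site on the opposite strand. Among all promoters of the table, 32.7% held a GC box, 16.3% a T-box core, 14.1% an NKX2-5 site and 9.99% a GATA site. The median promoter had 6 CpG and 52.4% GC. These matches are letters in a window and no evidence of binding.

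Whether αKG changed the junction genes was asked with limma on log2(value + 1) across all genes, with p-values adjusted by Benjamini-Hochberg over the 20066 genes and a threshold of 0.05. None of the 10 junction genes passed (0 of 10), with 3.78% of all genes past the threshold (2.83% higher and 0.952% lower), and limma-voom on the estimated reads also gave 0 of 10. At an unadjusted p under 0.05 there were 6 of the 10, 3 higher and 3 lower in αKG, against 28.1% of all genes (15.7% higher and 12.4% lower). In 5 of the 10 the libraries of the groups did not overlap, where 28.3% of all genes did not: *Ctnna3* and *Gjc1* were higher in every αKG library, as were 13.7% of all genes, and *Jup*, *Dsg2* and *Gja5* were lower in every αKG library, as were 14.6% of all genes. Without αKG replicate 3, 7 of the 10 passed the adjusted threshold, 4 higher and 3 lower, but so did 37.2% of all genes (19.3% higher and 17.9% lower). The median log2 difference of αKG against DMSO was 0.04 for the 10 genes and 0.04 for all genes. It was -0.03 for genes with a mean of at least 10 over the libraries, to which all 10 belong. By its estimated reads, counting alone gives a value of 9 of these genes a relative error of 1.37% to 4.91%, and a value of *Gja5* one of 13.4% to 31.6%.

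**Figure D1:**
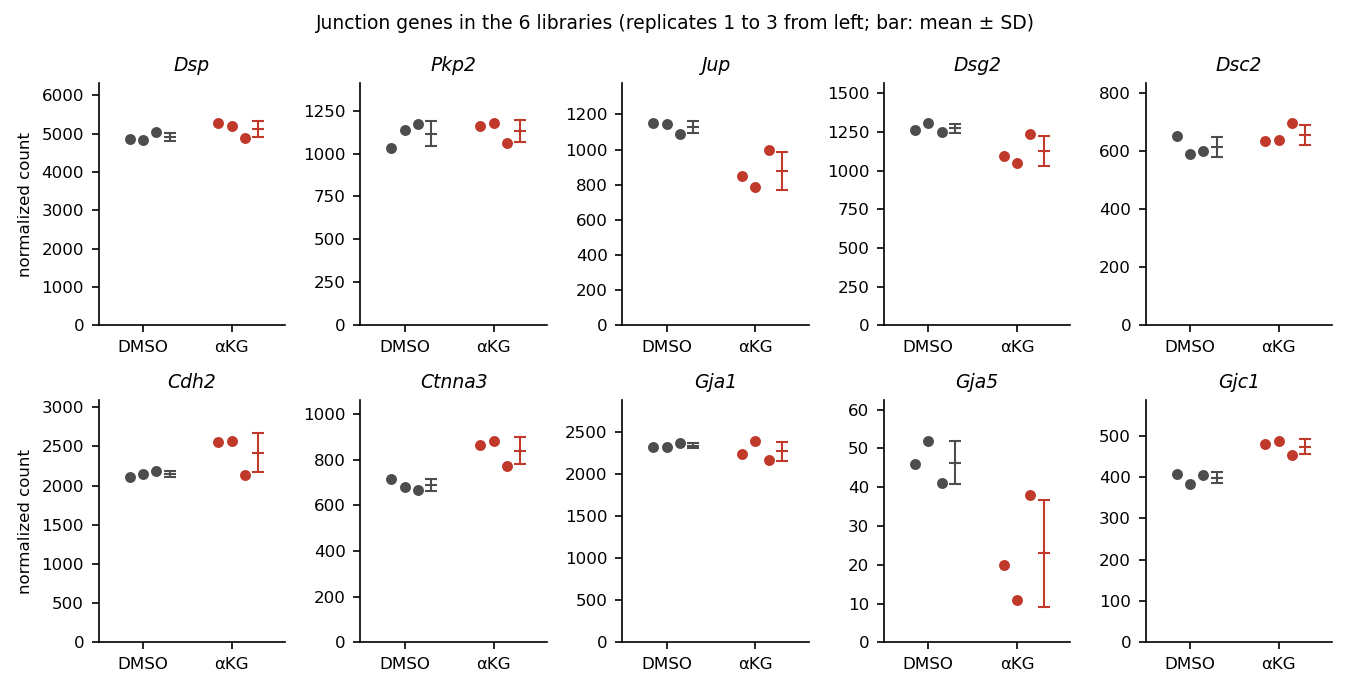
Normalized count (vertical axis, from 0) of each of the 10 junction genes in the 3 DMSO libraries (grey) and the 3 αKG libraries (red), with replicates 1 to 3 from left to right and the group mean ± SD as a bar. *Jup*, *Dsg2* and *Gja5* lie lower and *Ctnna3* and *Gjc1* higher in every αKG library, and the third αKG point is the one nearest to the DMSO points in these 5 panels.

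Levels were compared between genes only per kb of annotated exon. This length joins all annotated exons of a gene and may differ from that of the messages present, so the order depends on it. In DMSO, desmoplakin (*Dsp*) was the highest with 508 ± 11.4 normalized counts per kb (SD, n = 3), followed by *Cdh2* (266 ± 4.77), *Gja1* (227 ± 2.67), *Pkp2* (208 ± 13.6) and *Jup* (175 ± 4.99). Below these came *Dsg2* (154 ± 3.41), *Dsc2* (116 ± 6.27), *Ctnna3* (95.3 ± 3.49) and *Gjc1* (79.7 ± 2.55), and *Gja5* was the lowest with 8.06 ± 0.959. No neighbours in this order had DMSO libraries that overlapped. In αKG the mean per kb of *Jup* (137 ± 17.0) and of *Dsg2* (136 ± 11.8) were nearly equal, and that of *Ctnna3* (116 ± 8.37) was near that of *Dsc2* (124 ± 6.51).

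Of the desmosome genes, those for desmoplakin, plakophilin-2 and desmocollin-2 had overlapping groups, and those for plakoglobin and desmoglein-2 had a lower value in every αKG library. *Dsp* (ENSMUSG00000054889, chromosome 13, 38151294 to 38198577, plus strand) encodes the linker to desmin and had normalized counts of 4864, 4830 and 5036 in DMSO replicates 1 to 3 and of 5268, 5195 and 4895 in αKG replicates 1 to 3. αKG replicates 1 and 2 were above all DMSO libraries and αKG replicate 3 was within their range. The log2 difference was 0.06 ± 0.05 (SE, adjusted p = 0.432), with a 95% confidence interval from -0.05 to 0.17. Without αKG replicate 3 it was 0.09 ± 0.03 (adjusted p = 0.0493), and with quantile normalization it turned to -0.20. An opposite-strand gene, *Gm10129*, shares 499 bp of exon with *Dsp* and had values of 4 to 8. If the counting ignored strand, reads in the shared part were left out for both genes. The values of *Gm10129* therefore cannot show how far the overlap affects *Dsp*.

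*Pkp2* (ENSMUSG00000041957, chromosome 16, 16213318 to 16272712, plus strand) encodes plakophilin-2, which holds desmoplakin at the cadherin tails. Its normalized counts were 1034, 1138 and 1175 in DMSO and 1162, 1176 and 1059 in αKG. The groups overlapped almost wholly, and the log2 difference was 0.02 ± 0.07 (SE, adjusted p = 0.863) with a 95% confidence interval from -0.14 to 0.18. Its sign was not stable, being -0.0026 after scaling to the same total. *Pkp2* thus gave no detectable difference at this replication, and changes of up to the ends of that interval cannot be told from none.

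*Jup* (ENSMUSG00000001552, chromosome 11, 100368958 to 100397763, minus strand) encodes plakoglobin, the catenin found in both desmosomes and adherens junctions. Its normalized counts were 1149, 1144 and 1091 in DMSO and 848, 788 and 1000 in αKG, so that the mean in αKG (879 ± 109, SD, n = 3) was 77.9% of that in DMSO (1128 ± 32.1, n = 3). Each αKG library was below the lowest DMSO library, and αKG replicate 3 was the closest to it. The log2 difference was -0.37 ± 0.09 (SE) with a 95% confidence interval from -0.56 to -0.17. Its adjusted p of 0.0508 just missed the threshold, and it lay between 0.0014 and 0.269 over 17 alternatives, 7 of which put it below 0.05. Without αKG replicate 3 the difference was -0.46 ± 0.05 (adjusted p = 0.0014). *Jup* was the member most often called under the alternatives, and its difference was negative under each of them.

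The desmosomal cadherins had log2 differences of opposite sign. *Dsg2* (ENSMUSG00000044393, chromosome 18, 20558074 to 20604521, plus strand), which encodes desmoglein-2, had normalized counts of 1264, 1305 and 1251 in DMSO and 1096, 1046 and 1235 in αKG. All αKG libraries were lower, αKG replicate 3 by only a small margin, and the log2 difference was -0.18 ± 0.07 (SE, adjusted p = 0.142; -0.25 ± 0.04 and adjusted p = 0.0055 without αKG replicate 3). With a GC and length correction it was -0.29 (adjusted p = 0.0608). *Gm16090*, on the opposite strand, shares 330 bp of exon with *Dsg2* and had values of 3 to 6. Its partner *Dsc2* (ENSMUSG00000024331, chromosome 18, 20030633 to 20059554, minus strand), which encodes desmocollin-2, had normalized counts of 652, 590 and 601 in DMSO and 636, 637 and 696 in αKG. The groups overlapped, with the highest value in αKG replicate 3, and the log2 difference was 0.10 ± 0.08 (adjusted p = 0.426), which turned to -0.04 with a GC and length correction. Within each library, the ratio of *Dsg2* to *Dsc2* per kb was 1.24, 1.41 and 1.33 in DMSO and 1.10, 1.05 and 1.13 in αKG. All αKG ratios were below all DMSO ratios.

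In the adherens junction, the means of N-cadherin and αT-catenin messages in αKG were 113% and 122% of those in DMSO, and neither passed the adjusted threshold. *Cdh2* (ENSMUSG00000024304, chromosome 18, 16588877 to 16809246, minus strand), which encodes N-cadherin, had normalized counts of 2111, 2149 and 2188 in DMSO and 2552, 2573 and 2136 in αKG. αKG replicates 1 and 2 were above all DMSO libraries and αKG replicate 3 was among them. The log2 difference was 0.17 ± 0.07 (SE, adjusted p = 0.177), and it was 0.25 ± 0.03 (adjusted p = 0.0022) without αKG replicate 3. With a GC and length correction it was 0.11 (adjusted p = 0.363).

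*Ctnna3* (ENSMUSG00000060843, chromosome 10, 63430098 to 65003667, plus strand) encodes αT-catenin, an α-catenin of heart and testis that also binds plakophilin-2. Its normalized counts were 717, 682 and 668 in DMSO and 865, 884 and 771 in αKG. Every αKG library was higher than every DMSO library, and the mean in αKG (840 ± 60.5, SD, n = 3) was 122% of that in DMSO (689 ± 25.2, n = 3). The log2 difference was 0.28 ± 0.07 (SE) with a 95% confidence interval from 0.12 to 0.45 and an adjusted p of 0.0623, or 0.34 ± 0.05 (adjusted p = 0.0031) without αKG replicate 3. With a GC and length correction it was 0.18 (adjusted p = 0.140). *Lrrtm3*, which lies in an intron of *Ctnna3* on the opposite strand, had values of 0 to 8. The widely expressed α-catenin *Ctnna1*, by contrast, had normalized counts of 2612, 2563 and 2597 in DMSO and 2404, 2461 and 2491 in αKG, a log2 difference of -0.08 ± 0.05 (adjusted p = 0.299). β-catenin, encoded by *Ctnnb1*, had 1218, 1163 and 1182 in DMSO and 974, 1011 and 1130 in αKG, a log2 difference of -0.20 ± 0.07 (adjusted p = 0.115, or -0.26 and 0.0048 without αKG replicate 3).

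Of the connexins, *Gja1* had overlapping groups, *Gja5* was lower and *Gjc1* higher in every αKG library. *Gja1* (ENSMUSG00000050953, chromosome 10, 56377330 to 56402513, plus strand) encodes connexin 43, the main connexin of working ventricular CMs. Its normalized counts were 2321, 2313 and 2364 in DMSO and 2240, 2394 and 2163 in αKG. Lowest and highest value were both in αKG, and the log2 difference was -0.04 ± 0.06 (SE, adjusted p = 0.623) with a 95% confidence interval from -0.17 to 0.08. With a GC and length correction it became -0.24 (adjusted p = 0.045), and in the other 15 alternatives without this correction *Gja1* did not pass.

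*Gja5* (ENSMUSG00000057123, chromosome 3, 96904693 to 97077416, plus strand) encodes connexin 40, the connexin of atrial CMs, the ventricular conduction system and arterial endothelium. It was close to the lower end of what these libraries measure, with normalized counts of 46, 52 and 41 in DMSO and 20, 11 and 38 in αKG, from an estimated 48, 56, 43, 19, 10 and 40 reads. The mean in αKG (23.0 ± 13.7, SD, n = 3) was 49.6% of that in DMSO (46.3 ± 5.51, n = 3). αKG replicates 1 and 2 stood well below DMSO, whereas αKG replicate 3 was just under the lowest DMSO library. Exact Poisson 95% intervals, which cover counting error only, ran from 29.6 to 55.0 for DMSO replicate 3 and from 26.9 to 51.2 for αKG replicate 3, against 12.3 to 32.0 and 5.37 to 20.6 for αKG replicates 1 and 2. The log2 difference was -1.14 ± 0.38 (SE, adjusted p = 0.103). It was -1.57 ± 0.28 (adjusted p = 0.0071) without αKG replicate 3 and ranged from -1.57 to -0.72 over the alternatives. The gene *Gpr89* lies on the opposite strand and shares 165 bp of exon with *Gja5*. Its normalized counts were higher in αKG (237, 254 and 211) than in DMSO (178, 194 and 195), the opposite order to *Gja5*.

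*Gjc1* (ENSMUSG00000034520, chromosome 11, 102799579 to 102819700, minus strand) encodes connexin 45, the connexin of the nodes and of the early embryonic heart. Its normalized counts were 407, 384 and 405 in DMSO and 480, 488 and 453 in αKG. The groups did not overlap, and the mean in αKG (474 ± 18.3, SD, n = 3) was 119% of that in DMSO (399 ± 12.7, n = 3). The log2 difference was 0.25 ± 0.08 (SE) with a 95% confidence interval from 0.08 to 0.42 and an adjusted p of 0.0854. Without αKG replicate 3 it was 0.28 ± 0.05 (adjusted p = 0.0085), and with a GC and length correction it was 0.15 (adjusted p = 0.229). As for *Ctnna3*, αKG replicate 3 alone was also above every DMSO library.

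**Figure D2:**
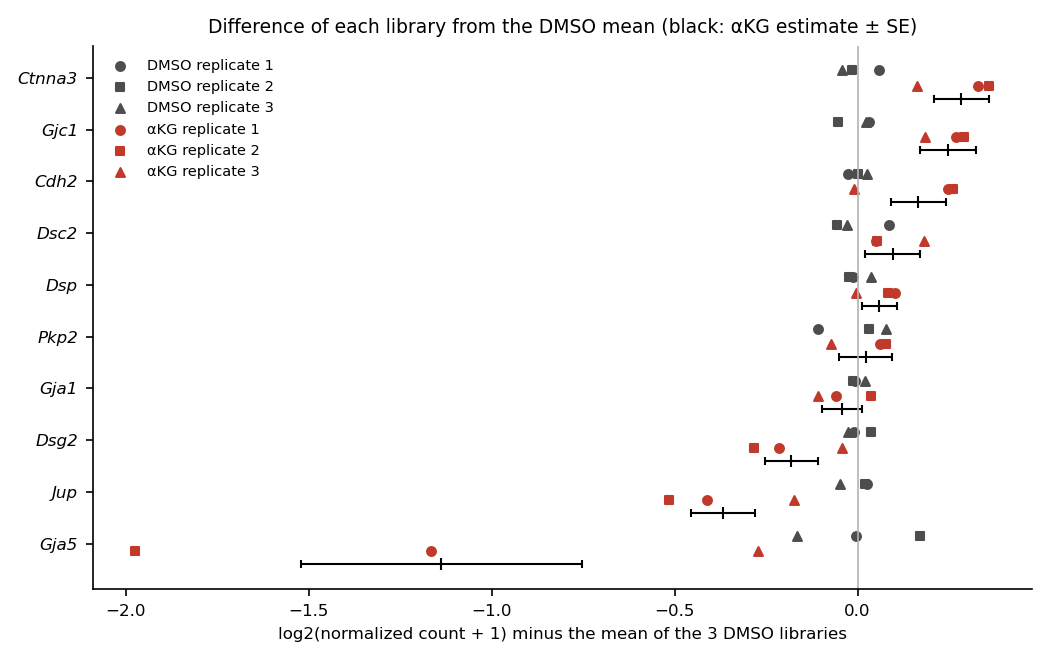
Difference of each library from the mean of the 3 DMSO libraries (horizontal axis, log2 of normalized count plus 1) for the 10 junction genes, with grey symbols for DMSO, red symbols for αKG, a symbol shape for each replicate number, and the αKG estimate ± SE in black. *Gja5* reaches farthest from 0, at -1.14 ± 0.38, and the red triangles of αKG replicate 3 lie nearer to 0 than the other αKG symbols for *Gja5*, *Jup*, *Dsg2*, *Cdh2*, *Ctnna3* and *Gjc1*.

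A ratio of genes within a library does not depend on how the library was scaled, so 7 ratios per kb of exon were computed, chosen after the values had been seen. With 3 libraries against 3, the exact two-sided permutation test cannot give a p below 0.1, which is the value of 6 of the 7 ratios (Benjamini-Hochberg adjusted p = 0.117). For each *Gja1*, there was 0.360, 0.340 and 0.351 of *Gjc1* in DMSO and 0.439, 0.418 and 0.429 in αKG. This ratio was the steadiest of the 7 within αKG, with αKG replicate 3 between the other αKG libraries, and its mean was 0.350 ± 0.010 in DMSO and 0.429 ± 0.011 in αKG (SD, n = 3). *Gja5* per *Gja1* was 0.035, 0.040 and 0.031 in DMSO and 0.016, 0.0082 and 0.031 in αKG, with αKG replicate 3 inside the DMSO range (exact permutation p = 0.2).

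Of the summed levels per kb of the 3 connexins, *Gja1* made up 71.7%, 72.4% and 72.3% in DMSO and 68.7%, 70.1% and 68.5% in αKG. *Gjc1* made up 25.8%, 24.7% and 25.4% in DMSO and 30.2%, 29.3% and 29.4% in αKG. *Gja5* supplied 2.54%, 2.91% and 2.24% in DMSO and 1.10%, 0.575% and 2.15% in αKG. Per kb of annotated exon, *Gja1* thus had the highest level of the 3 in all libraries, and the share of *Gjc1* was higher in every αKG library. The sizes of these shares depend on the annotated lengths, which may differ from those of the messages present.

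Ratios of plakoglobin and of the adherens junction genes were read in the same way. *Jup* per *Dsp* was 0.355, 0.355 and 0.325 in DMSO and 0.242, 0.228 and 0.307 in αKG, a difference of means of -0.43 on the log2 scale. *Jup* per *Ctnnb1*, the other catenin that N-cadherin binds, was 0.761, 0.794 and 0.745 in DMSO and 0.702, 0.629 and 0.714 in αKG, a smaller difference of -0.17. The share of αT-catenin against the common α-catenin, *Ctnna3* per *Ctnna1*, was 0.244, 0.237 and 0.229 in DMSO and 0.320, 0.319 and 0.275 in αKG (log2 difference of 0.36). *Cdh2* per *Ctnnb1* was 1.12, 1.19 and 1.19 in DMSO and 1.69, 1.64 and 1.22 in αKG (log2 difference of 0.36), with αKG replicate 3 only just above DMSO. None of these 4 ratios overlapped between the groups. As the pairs were chosen after the values had been seen and no share over other pairs was computed, this count has no background. Of single genes, 28.3% did not overlap.

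**Figure D3:**
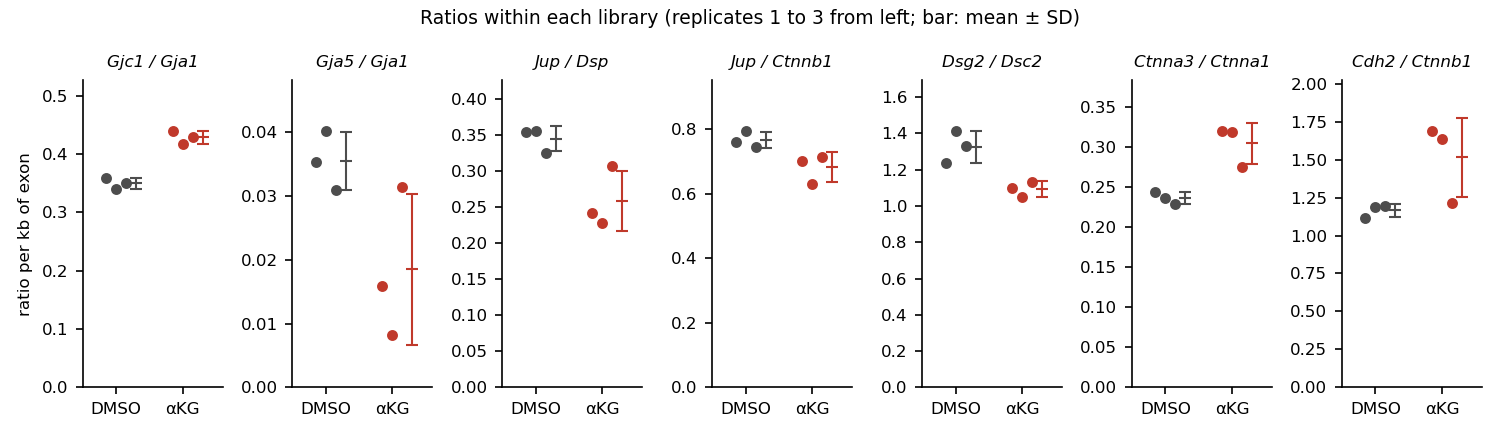
Ratio of normalized counts per kb of exon within each library (vertical axes, from 0) for 7 gene pairs, in the 3 DMSO (grey) and 3 αKG libraries (red), replicates 1 to 3 from left to right, with the mean ± SD as a bar. Only *Gja5* to *Gja1* overlaps between the groups, and *Gjc1* to *Gja1* has αKG values of 0.418 to 0.439 against 0.340 to 0.360 in DMSO.

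Other genes of these junctions came from 5 lists chosen by function, with 91 genes of which 77 were listed. At an adjusted p under 0.05, 6 of the 77 rose and 3 fell, where 2.83% of all genes rose and 0.952% fell. The median log2 difference of the 77 was 0.03, against 0.04 for all genes. These 9 calls rest on few libraries: 0 of the 9 passed without DMSO replicate 2, αKG replicate 1 or αKG replicate 2. Only 1 (*Cdh3*) passed without DMSO replicate 1 or 3. Leaving out αKG replicate 3 gave 23 of the 77 higher and 22 lower, against 19.3% and 17.9% of all genes. Among other desmosome genes, 9 of 14 were listed and 0 passed by limma, with a median of 0.23. At an unadjusted p under 0.05 there were 3 of the 9, against 28.1% of all genes. The highest were *Pkp4*, a plakophilin relative (0.01 ± 0.06, SE, adjusted p = 0.926), *Des*, which encodes desmin (0.23 ± 0.07, adjusted p = 0.0924), and the desmosomal membrane protein gene *Perp* (-0.21 ± 0.07, adjusted p = 0.103). Leaving out αKG replicate 3 gave 0.31 for *Des* (adjusted p = 0.0014) and -0.25 for *Perp* (adjusted p = 0.0152). The epithelial desmosome genes *Dsg1a*, *Dsg1b*, *Dsc3* and *Pkp1* had values of 0 to 6.

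All 18 other adherens junction genes were listed, with a median of 0.27. Of them 2 rose and 1 fell at the adjusted threshold, against 2.83% and 0.952% of all genes. *Cdh3*, which encodes the placental cadherin, had normalized counts of 79, 77 and 85 in DMSO and 233, 210 and 232 in αKG. Here αKG replicate 3 was as high as the other αKG libraries, and the log2 difference was 1.47 ± 0.12 (SE, adjusted p = 0.0013). *Afdn*, which encodes the actin-binding nectin partner afadin, was at 1059, 1144 and 1037 in DMSO and 1327, 1312 and 1277 in αKG (0.27 ± 0.06, adjusted p = 0.0453). The call of *Afdn* held in 5 of 17 alternatives. It was lost, among others, with limma-voom (adjusted p = 0.0534), a pseudocount of 0.1 (0.0563) and the replicate block (0.0992). The GC and length correction also removed it, with a difference of 0.17 (adjusted p = 0.117). With a library left out, the call was kept only when that library was αKG replicate 3. *Cdh5*, which encodes the cadherin of endothelial cells, fell from 519, 442 and 518 to 222, 195 and 316 (-1.04 ± 0.16, adjusted p = 0.0181). *Vcl*, which encodes vinculin, was at 1895 ± 9.54 in DMSO and 1961 ± 55.9 in αKG (SD, n = 3; log2 difference of 0.05, adjusted p = 0.556).

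Of 20 other connexin and pannexin genes, 11 were listed and 0 passed by limma, with a median of 0.19. At an unadjusted p under 0.05 there were 4 of the 11, against 28.1% of all genes. *Gja3*, the connexin 46 gene, was at 223, 171 and 186 in DMSO and 151, 150 and 164 in αKG (-0.31 ± 0.13, SE, adjusted p = 0.147). *Gja4*, the connexin 37 gene of arterial endothelium, had 21, 12 and 9 in DMSO and 33, 13 and 8 in αKG (0.19 ± 0.51, adjusted p = 0.829). *Panx1* had 52, 33 and 42 in DMSO and 32, 30 and 43 in αKG (-0.26 ± 0.25, adjusted p = 0.509).

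The 28 partner proteins of the intercalated disc were all listed, and their median was 0.02. Of them 4 rose and 0 fell at the adjusted threshold, against 2.83% and 0.952% of all genes. *Xirp2*, which encodes an actin-binding protein of the disc, had the largest rise of the 4, with 1243, 1798 and 1617 in DMSO and 5817, 6504 and 3182 in αKG (1.69 ± 0.23, SE, adjusted p = 0.0111). *Nrap*, a nebulin-related protein that anchors actin filaments, went from 1722, 1701 and 1693 to 2434, 2475 and 2124 (0.46 ± 0.07, adjusted p = 0.0136). *Enah*, an actin polymerization factor, went from 1787, 1913 and 1903 to 2721, 2832 and 2290 (0.48 ± 0.08, adjusted p = 0.0224), which became 0.21 (adjusted p = 0.0492) with the GC and length correction. *Flnc*, the muscle filamin, went from 2441, 2483 and 2478 to 3520, 3077 and 2918 (0.36 ± 0.07, adjusted p = 0.0341). The highest that did not pass were *Lmo7* (0.03), *Xirp1* (-0.12) and *Ank3* (-0.04), and the connexin 43 partner *Tjp1* was at 0.12 ± 0.06 (adjusted p = 0.189). Of the 28, 10 were higher and 10 lower by adjusted p without αKG replicate 3, against 19.3% and 17.9% of all genes. Among them were *Xirp1* (-0.16, adjusted p = 0.0372) and *Tjp1* (0.13, adjusted p = 0.0428).

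All 11 transcription factors known to act on cardiac connexin genes were listed, and their median was -0.38. At an adjusted p under 0.05, 0 rose and 2 fell, and at an unadjusted p under 0.05, 1 was higher and 8 were lower. Over all genes, the shares were 2.83% and 0.952% with the adjusted p, and 15.7% and 12.4% with the unadjusted p. Without αKG replicate 3, 1 of the 11 was higher and 8 were lower by adjusted p, against 19.3% and 17.9% of all genes. *Tbx3*, a repressor of *Gja5* and *Gja1* in nodal CMs, fell from 117, 108 and 104 to 60, 65 and 79 (-0.69 ± 0.16, SE, adjusted p = 0.0451). This call held in 7 of 17 alternatives. It was lost, among others, with limma-voom (adjusted p = 0.0608) and with a pseudocount of 0.1 (0.0559). The call of *Irx3* held in 8 of 17 and was also lost with a pseudocount of 0.1 (0.0503). *Irx3*, which acts on connexin genes of the ventricular conduction system, fell from 656, 656 and 697 to 406, 418 and 547 (-0.56 ± 0.11, adjusted p = 0.0360). *Tbx5*, an activator of *Gja5*, was at 668, 642 and 637 in DMSO and 456, 441 and 583 in αKG (-0.41 ± 0.11, adjusted p = 0.0609, or -0.53 and 0.00095 without αKG replicate 3). *Prox1* was at -0.27 ± 0.10 (adjusted p = 0.113) and *Gata4* at -0.24 ± 0.10 (adjusted p = 0.167). These were -0.37 (adjusted p = 0.0071) and -0.38 (adjusted p = 0.0013) without αKG replicate 3.

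**Figure D4:**
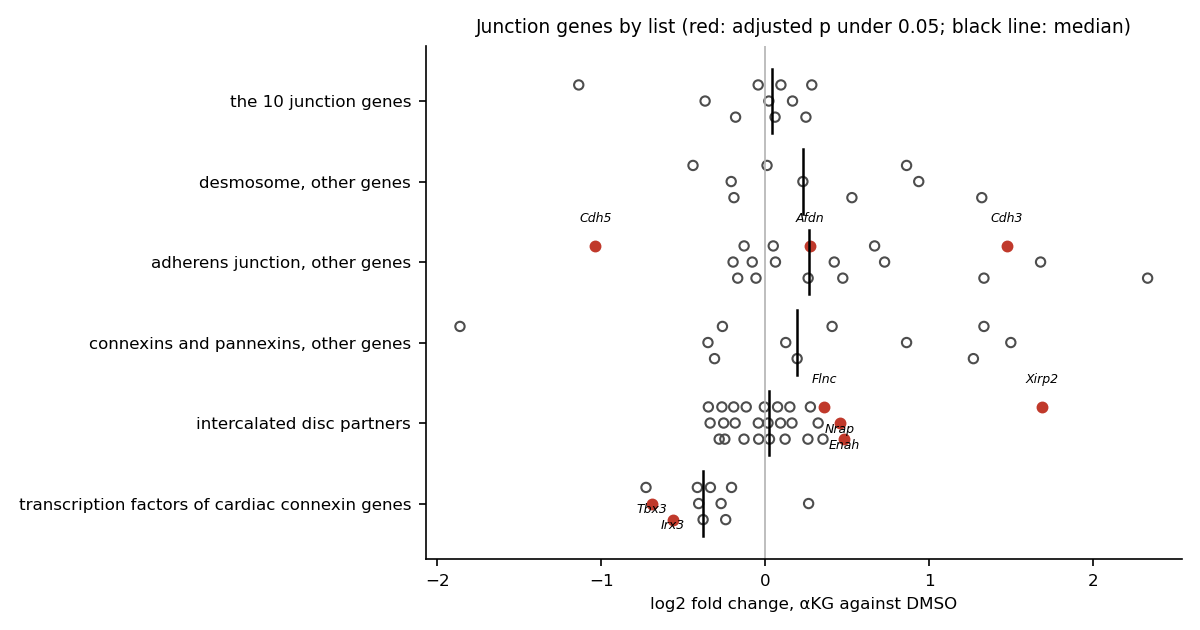
Log2 fold change of αKG against DMSO (horizontal axis) for each listed gene of the 10 junction genes and of 5 further junction lists, with a black line at each median and filled red circles for genes at an adjusted p under 0.05. No circle among the 10 junction genes is filled, 9 others are, and the transcription factors have the lowest median, -0.38.

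Several junction genes are also used by cells other than CMs, so 10 marker lists were summed in each library, with no test over a list. *Cdh5*, *Gja4*, *Tbx3* and *Tbx18* stand in a junction list as well. As for the junction lists, the calls given here were lost when αKG replicate 1 or 2 was left out, since 0 genes of the whole table then passed. With all libraries, 2.83% of all genes rose and 0.952% fell at the adjusted threshold, and 28.1% had an unadjusted p under 0.05. The leading genes named for each list have the largest values, which are not per length. The CM list (12 of 12 listed, led by *Ttn* and *Ryr2*) summed to 81094 to 84060 in DMSO and to 116124, 119360 and 86382 in αKG, and 1 of its genes (*Myh7*) rose. The median log2 difference of its genes was 0.10, smaller than the 0.36 of the sum, most of which is *Ttn*. The endothelial list (12 of 12, led by *Cdh5* and *Kdr*) summed to 1856 to 2005 in DMSO and to 1028, 894 and 1225 in αKG, and 9 of its genes fell. The arterial endothelial list (9 of 9, led by *Unc5b* and *Efnb2*) summed to 934 to 992 in DMSO and 1451, 1362 and 872 in αKG, and 0 of its genes passed by limma (3 at an unadjusted p under 0.05). The median log2 difference of its genes was -0.23, opposite in sign to that of the sum (0.32). The conduction system list (7 of 7, led by *Cacna1g*) summed to 1587 to 1831 in DMSO and 1259, 1034 and 1702 in αKG, and *Tbx3* was among its genes that fell. The atrial list (8 of 8, led by *Nppa* and *Myl4*) summed to 1404 to 1488 in DMSO and 1767, 1820 and 1438 in αKG. The median log2 difference of its genes was 0.12, smaller than the 0.21 of the sum. *Nppa* was at 0.32 and *Myl4* at 0.49, and 1 gene (*Stard10*, -0.57) fell. At an unadjusted p under 0.05, 3 of its genes were higher and 1 was lower. The study also uses *Nppa* as a marker of dedifferentiation. The ventricular list (4 of 4, led by *Myl2* and *Irx4*) summed to 2087 to 2205 in DMSO and 1613, 1536 and 2040 in αKG, with 0 genes past the threshold (2 at an unadjusted p under 0.05).

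Beside *Gja5*, the endothelial and conduction system sums were lower in αKG replicates 1 and 2, where *Gja5* was lowest. The atrial and arterial endothelial sums were higher in these 2 libraries, while the median of the arterial genes was below 0. The atrial sum is led by *Nppa* and *Myl4*, and the median of the atrial genes was 0.12. αKG replicate 3 had an endothelial sum below all DMSO libraries, an arterial sum just below them, and conduction system and atrial sums within the DMSO range. Plakoglobin is also made by endothelial cells, and *Jup*, like the endothelial sum, was below DMSO in every αKG library. The ventricular sum (1613, 1536 and 2040 against at least 2087 in DMSO) was below DMSO in every αKG library too. So were 14.6% of all genes. The part of any of these cell types in the values of *Gja5* and *Jup* was not tested.

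The fibroblast and epicardial sums were above DMSO in αKG replicates 1 and 2 only. The fibroblast list (10 of 10, led by *Col1a1* and *Col1a2*) summed to 3363 to 3578 in DMSO and 7447, 7291 and 3409 in αKG, and the epicardial and mesothelial list (13 of 13, led by *Tbx18* and *Krt18*) to 580 to 633 and 1550, 1540 and 569. In both lists 0 genes passed by limma, with 5 and 4 at an unadjusted p under 0.05, against 28.1% of all genes. By adjusted p without αKG replicate 3, 8 of 10 and 13 of 13 were higher, against 19.3% of all genes. *Cdh2*, which fibroblasts and mesothelium also express, was also above DMSO in αKG replicates 1 and 2 and within the DMSO range in αKG replicate 3. The part of these cells in its value was not tested. The mural list (9 of 9, led by *Abcc9* and *Cspg4*) summed to 4294 to 4405 in DMSO and 4908, 4446 and 4677 in αKG. This sum was above DMSO in every αKG library, but its 2 leading genes went opposite ways. *Cspg4* rose (0.66 ± 0.13, SE, adjusted p = 0.0362), and *Abcc9* was at -0.28 ± 0.10 (adjusted p = 0.126). The median of the mural genes was 0.08, with 1 higher and 2 lower at an unadjusted p under 0.05. Of 10 macrophage markers 4 were listed, led by *Mrc1* and *Cd68*, with sums of 22 to 35 in DMSO and 29, 41 and 24 in αKG. Markers at 0 in at least 1 library were *Cldn5*, *Sox17*, *Muc16*, *Kcnj8* and *Csf1r*.

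**Figure D5:**
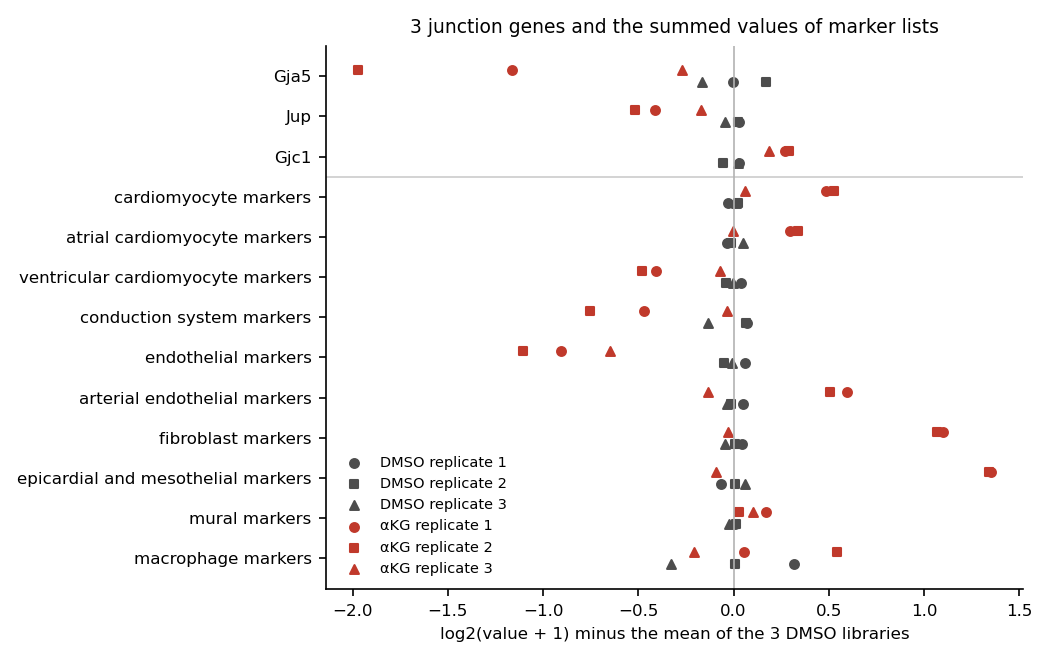
Difference from the mean of the 3 DMSO libraries (horizontal axis, log2 of value plus 1) for *Gja5*, *Jup* and *Gjc1* and for the summed values of 10 marker lists, with grey symbols for DMSO, red symbols for αKG and a symbol shape for each replicate number. The endothelial and ventricular sums lie below DMSO in every αKG library, whereas the fibroblast and epicardial sums lie above it only in αKG replicates 1 and 2.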

How the data were processed

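Total RNA of cultured CMs was sequenced in 6 libraries, 3 with DMSO and 3 with αKG. Per the submitters' processing notes and the study's methods, the authors used Trimmomatic 0.39 for trimming, STAR 2.7.10a for alignment to mm10 (GRCm38.p5), featureCounts 2.0.3 for counting per gene and DESeq2 1.30.1. A read counted if any of it fell in an exon, unless it touched more than 1 gene or aligned to more than 1 region. Whether the counting used strand is not given in the sources used here, so overlapping genes are named beside the values. The deposited values are treated as a score, because the authors had normalized the counts per library and rounded them to whole numbers, so they are no raw counts and DESeq2 was not run on them.

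The value of 1 read was estimated from the spacing of low values (0.926 to 1.1188 per library), and the estimate was tested on simulated data (largest error 0.564% in 20 simulations). Without molecular identifiers, PCR copies cannot be told from separate molecules, so counting intervals cover counting error only. Group differences came from limma 3.58.1 (R 4.3.3) on log2(value + 1) with treatment as the only term, a variance trend, no filter and Benjamini-Hochberg adjustment over 20066 genes. The pseudocount understates the change of low genes. Exon lengths and overlaps came from GENCODE M21 (GRCm38), where 99% of the genes had the same position, and sequences from RefSeq. Ratios were compared with exact two-sided permutation tests (Python 3.11.15).

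The 10 genes, the 5 junction lists, the 10 marker lists and the motifs were chosen with earlier results of these data known. All 10 genes are named. Of the other junction genes, those with an adjusted p under 0.05 are named, with up to 3 of the highest of each list that did not pass, and of each marker list the 2 highest, except that 1 marker gene is not reported here. *Tjp1*, *Vcl* and *Ctnnb1* are named beside their partners. *Dsg1a*, *Dsg1b*, *Dsc3*, *Pkp1*, *Ppl*, *Evpl*, *Myh7*, *Stard10* and *Cspg4* were named after their values were seen. The 17 alternatives covered pseudocount, filter, variance model, scaling, the replicate block, GC and length, DMSO replicates 2 and 3 averaged, estimated reads with limma-voom, and each library left out.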

Additional observations from a re-analysis of the deposited data

How the results depend on the processing

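All signs of *Jup*, *Dsg2*, *Cdh2*, *Ctnna3*, *Gja1*, *Gja5* and *Gjc1* held in all 17 alternatives, and no alternative moved the median of all genes by over 0.1. Of 170 values of the 10 genes, 147 kept their call and sign, 15 gained a call, 0 lost one and 8 turned sign. Of 425 values of the other named genes, 326 kept call and sign, 74 lost a call, 11 gained one and 14 turned sign. The cause of these changes was not tested. With 3 libraries a group, single libraries decided the counts. The genes called, 759 with all libraries, came to 152, 3 and 4 without DMSO replicates 1 to 3, to 0 and 0 without αKG replicate 1 or 2, and to 7466 without αKG replicate 3. The 10 junction genes called ranged from 0 to 7 when each library was left out, with 7 only without αKG replicate 3, and the genes of the 5 lists from 0 to 45, against 9, with 45 only without αKG replicate 3. *Gja5* is limited by depth, at 10 to 56 estimated reads.

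Over all genes, a pseudocount of 0.1 gave 346 calls, no variance trend 27, limma-voom 361, averaging DMSO replicates 2 and 3 gave 10, the GC and length correction 1233, and the unadjusted p 5648. Of the 10 genes, *Jup* was called (1) with a pseudocount of 5, with genes of a mean of at least 10, with the same total and with quantile normalization. *Jup* and *Gja1* were called (2) with the GC and length correction, and 6 genes by unadjusted p. The list genes came to 2 without the variance trend and to 1 with DMSO replicates 2 and 3 averaged. Same-numbered libraries correlated in their deviations from the group means at -0.074, 0.136 and 0.002. With 3 libraries a group, these deviations are too few to decide whether same-numbered libraries share an isolation. The GC and length correction for the counts and its use with the block were chosen after seeing the data. The replicate block gave 46 calls over all genes, 0 among the 10 and 1 among the list genes, and the block with the GC and length correction 1731, 2 and 17.

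Signs turned for *Dsp* with quantile normalization (-0.1956). *Pkp2* turned with the same total (-0.0026) and with the GC and length correction, with or without the block (-0.0095), and lay between -0.0318 and 0.0694 with a library left out. *Dsc2* turned with the GC and length correction (-0.0376, also with the block). *Pkp4* turned with the same total (-0.0138) and quantile normalization (-0.0334), *Vcl* with quantile normalization (-0.0273) and the GC and length correction (-0.0322), *Gja4* with quantile normalization (-0.1711), and *Lmo7* with quantile normalization (-0.1444) and the GC and length correction (-0.0937). With a library left out, *Pkp4* lay between -0.0292 and 0.0585, *Gja4* between -0.3386 and 0.62, and *Ank3* between -0.0867 and 0.0183.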
